A study of Mus musculus with 5 samples.

Results

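The 33 genes described here encode the enzymes and transporters that break glucose down to lactate, and the sensors and targets of the cellular response to low oxygen. They were chosen by gene symbol, and all 33 were present, each on 1 row, among the 16413 genes of the deposited table. The libraries came from thyroid glands of LSL-BrafV600E;TgCreERT2 mice, in which a Cre recombinase driven by the thyroglobulin promoter and switched on by tamoxifen removes a stop cassette and so activates the oncogenic BrafV600E allele in follicular cells. All mice received tamoxifen for 1 week at 8 weeks of age, so the genotype and the drug were shared by both groups. There were 2 chow libraries, numbered replicates 2 and 8, and 3 from high fat feeding, numbered 2, 9 and 10, which differed in the diet eaten for 12 weeks, from 10 to 22 weeks of age. Recombination of the allele was not measured here. The labels do not say whether each library is a separate animal, and the p-values therefore measure the spread between these libraries.

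Glycolysis splits glucose into pyruvate in the cytosol. Pyruvate is then either reduced to lactate by lactate dehydrogenase or passed into mitochondria. When oxygen is short, the alpha subunits of the hypoxia-inducible factors (HIF) escape hydroxylation by the EGLN enzymes, are stabilised, and switch on most of the genes considered here, including glucose transporters, glycolytic enzymes and the angiogenic factor Vegfa. In tumours the same genes are known for supporting lactate production even where oxygen is present, and in thyroid cancer glucose uptake is used clinically for imaging.

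Total counts over all genes ran from 43494747 to 52663677 per library. Thyroglobulin (Tg), the defining product of follicular cells, took 10.9% to 22.1% of the counts, so the labelled tissue was clearly present in each library. Tg took 18.7% and 22.1% on chow and 17.1%, 14.9% and 10.9% under high fat feeding. CPM are counts scaled to library size. The 10 airway epithelium markers summed to 1487 and 1874 CPM on chow and 2138, 2776 and 8003 CPM under high fat feeding. Neither measure overlapped between the diets. High fat diet replicate 10 stood apart, with the most airway markers and the lowest share of Tg. Skeletal muscle markers, all 10 of which were in the table, summed to 682 CPM in chow replicate 8 and to 1928 CPM in chow replicate 2, the lowest and highest of the 5 libraries. In these bulk libraries fewer cells of a type and less RNA per cell cannot be told apart.

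No diet difference was called for any of the 33 genes. With 2 against 3 libraries this does not show that the differences were small. None passed in either direction in edgeR's quasi-likelihood test at a Benjamini-Hochberg adjusted p under 0.05 over the 15765 genes tested, where 0% of all genes were called higher and 0% lower. The lowest adjusted p among the 33 was 0.869, that of Epas1, and 0 of the 33 passed in DESeq2 or limma-voom, where 2 and 1 had an unadjusted p under 0.05. DESeq2 called 0.59% of all genes and limma-voom 0%, and 6.13% and 5.09% had an unadjusted p under 0.05. All 33 passed the filter on low counts. In edgeR 1 of the 33 was higher and 0 were lower at that unadjusted level (3.03% and 0%), against 2.95% and 2.47% of all genes. Their median log2 fold change, high fat diet over chow, was 0.08, against 0.01 over all genes tested, and 22 of 33 (66.7%) lay above 0, against 52.7% of all genes. The CPM of the groups did not overlap for 4 genes that were higher (12.1%, background 10.6%) and for 2 that were lower (6.06%, background 10.3%). The shares of higher genes, at an unadjusted p under 0.05 and without overlap, lay near those of all genes. The share above 0 was larger and both shares of lower genes were smaller than those of all genes, and these departures were not tested. The counts without overlap depend on the scaling. In FPKM, the deposited values per transcript length, both lower genes, Egln1 and Bnip3, overlapped. Further genes, Vegfa and P4ha2 among them, lay higher without overlap in FPKM, and the share of all genes that did so was not computed.

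**Figure D1:**
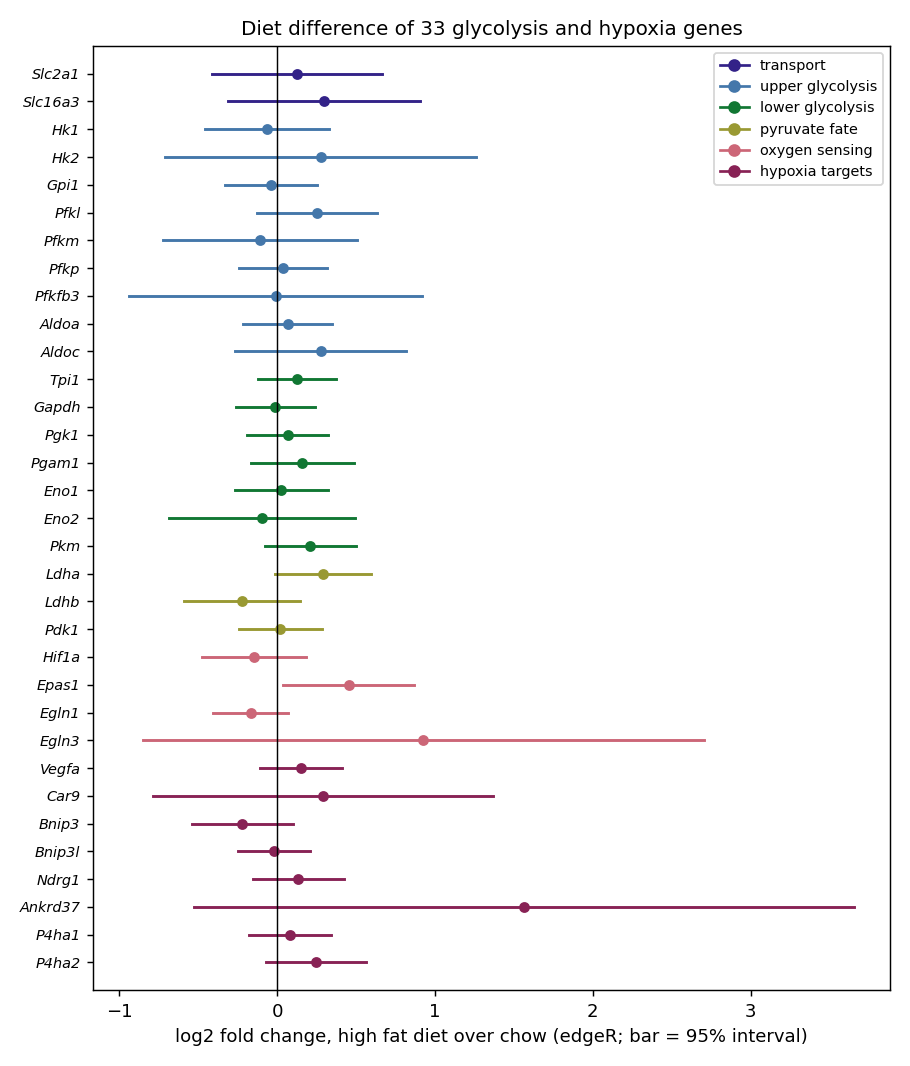
Log2 fold change of the 33 genes, high fat diet over chow (x axis), with the 95% interval derived from the edgeR fit as a bar, coloured by role. Most intervals cross 0 and lie within 1 log2 unit of it, while those of Hk2, Car9, Egln3 and Ankrd37 reach beyond.

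Each interval holds for 1 gene alone, is not adjusted over the 33 genes and rests on 2 and 3 libraries. For 29 of the 33 genes the 95% interval of the log2 fold change lay entirely between -1 and 1, and for 17 it lay between -0.5 and 0.5. The 4 genes whose interval reached beyond 1 log2 unit were Hk2, Car9, Egln3 and Ankrd37. The 2 chow libraries differed from each other by more than the fitted diet difference for 21 of the 33 genes (63.6%, against 59.0% of all genes tested). The largest such gaps among abundant members were 0.96 log2 units for Pfkfb3, 0.73 for Pfkm, 0.55 for Slc2a1 and 0.52 for Hk1.

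The libraries were not alike in these genes. High fat diet replicate 10 held the highest CPM of 18 of the 33 genes (54.5%), whereas it held the highest value of 29.7% of all genes tested. Chow replicate 2 held the lowest value of 15 of the 33, while it held the lowest value of 18.7% of all genes tested. The median deviation of the 33 genes from their mean log2 CPM was 0.15 in high fat diet replicate 10 and lay between -0.09 and -0.01 in the other 4 libraries. The summed CPM of the 33 genes was 3774 and 3914 on chow and 4028, 3924 and 4180 under high fat feeding. The part of the airway markers or of the Tg share in these differences was not tested.

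**Figure D2:**
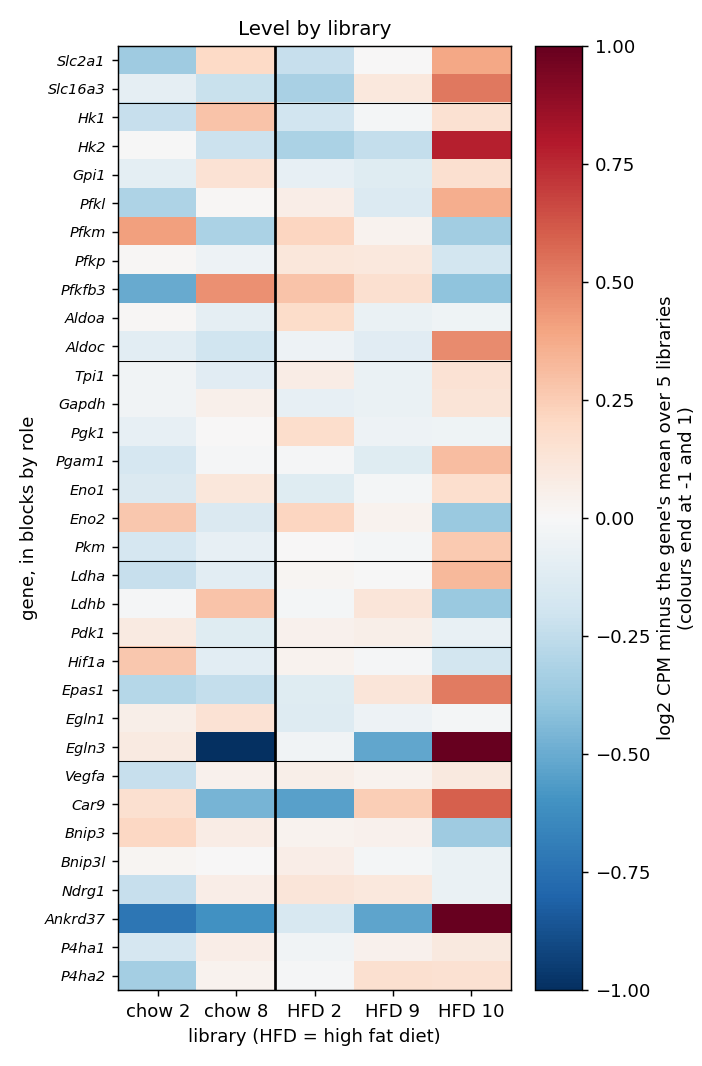
Log2 CPM of each gene minus its mean over the 5 libraries (colour), with genes in blocks by role and libraries in columns, the 2 chow libraries left of the thick line. High fat diet replicate 10 carries most of the strong red cells, and Pfkfb3 spans its whole range between the 2 chow libraries.

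Levels of different genes were compared as FPKM, which is per transcript length. Aldoa, which cleaves fructose bisphosphate, was the most abundant of the 33 at a mean of 257 FPKM over the 5 libraries, rank 139 among the genes tested. Ldha followed at 179 ± 34.6 FPKM (SD, n = 5) and Pkm, the last kinase of glycolysis, at 154 ± 24.7 FPKM. The ranges of these 2 genes over the libraries overlapped, while Ldha was the higher in each of the 5 libraries. Eno1, Hif1a and Tpi1 lay together at 109, 109 and 105 FPKM, with SDs of 13.4, 12.8 and 12.1 (n = 5). At the low end stood Egln3 at 1.23 FPKM and Car9, the surface carbonic anhydrase often used as a hypoxia marker, at 0.367 FPKM. The Car9 values rested on 21 to 54 counts per library. For Gapdh, Ldha, Eno1, Pgam1, Tpi1, Pkm and Aldoa the level is uncertain, since processed pseudogenes of near-identical sequence can take part of the reads.

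Slc2a1 (GLUT1) is a transporter through which glucose enters, and Slc16a3 (MCT4) is one of those through which lactate leaves. Slc2a1 was at 38.2 and 56.0 CPM on chow and at 41.7, 49.0 and 63.7 CPM under high fat feeding. Both diets thus held a low and a high library, the groups overlapped, and the log2 fold change was 0.13 (standard error, SE, 0.23). Slc16a3 was at 4.61 and 4.21 CPM on chow and 3.92, 5.28 and 7.06 CPM under high fat feeding, again with overlap. The log2 difference of 0.30 became 0.0604 without high fat diet replicate 10. Of the summed FPKM of 3 monocarboxylate transporters, Slc16a3 held 19.6% to 30.6% and Slc16a1 held 43.6% to 51.7%. Among 5 glucose transporters in the table Slc2a1 held 62.7% to 77.6% of the summed FPKM in each library, and the insulin-regulated transporter of muscle and fat, Slc2a4, held 4.74% to 16.4%.

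The hexokinases, which trap glucose by phosphorylation, were led by Hk1. It held 68.3% to 82.1% of the FPKM of the 4 hexokinase genes in the table, and Hk2, the inducible form, held 14.4% to 26.3%. Hk2 was at 26.8 and 23.2 CPM on chow and at 21.6, 22.9 and 46.3 CPM under high fat feeding. The value of high fat diet replicate 10 lay well above the other 4, which were close together. With all libraries the log2 fold change of Hk2 was 0.28 (SE 0.38), and without high fat diet replicate 10 it was -0.17. Hk1 had -0.06 and the isomerase Gpi1, which turns glucose phosphate into fructose phosphate, had -0.04.

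Phosphofructokinase, the main control point of glycolysis, was shared between its 3 genes. Pfkl (liver type) held 25.0% to 43.3% of the family's FPKM, Pfkm (muscle type) 30.4% to 47.3% and Pfkp (platelet type) 26.3% to 31.4%, so the leading gene was not the same in every library. Pfkl was at 42.3 and 52.6 CPM on chow and at 54.6, 47.6 and 67.2 CPM under high fat feeding, with a log2 fold change of 0.25 (SE 0.17), which was 0.0973 without chow replicate 2 and 0.11 without high fat diet replicate 10. Pfkm was at 61.3 and 36.9 CPM on chow and at 53.5, 47.1 and 36.2 CPM under high fat feeding. Pfkp lay between 44.4 and 54.4 CPM in all libraries, with a log2 fold change of 0.04. Pfkfb3, which makes a signal molecule that activates phosphofructokinase, was at 60.2 and 117 CPM on chow and at 104, 95.3 and 64.7 CPM under high fat feeding. Its chow libraries spanned the 3 high fat diet values, and the group means were 88.7 ± 40.3 CPM (SD, n = 2) and 88.1 ± 20.7 CPM (SD, n = 3). Its paralog Pfkfb2 was the more abundant of the family, with 49.0% to 57.9% of the FPKM against 28.9% to 43.7% for Pfkfb3.

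**Figure D3:**
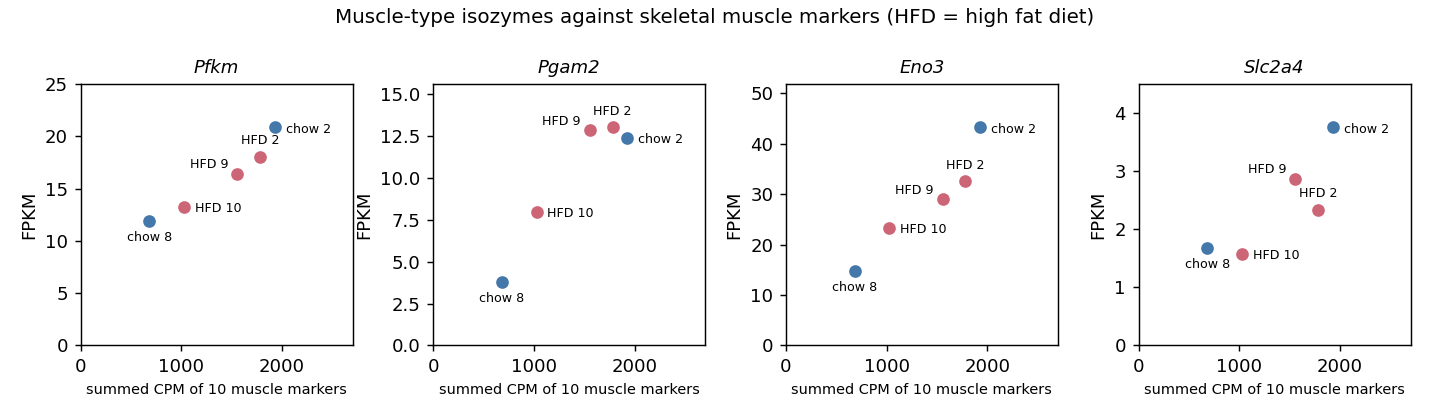
FPKM of Pfkm, Pgam2, Eno3 and Slc2a4 (y axes) against the summed CPM of 10 skeletal muscle markers (x axes), 1 point per library, blue for chow and red for the high fat diet. Chow replicate 8 (682 CPM of muscle markers) lies at the lower left for Pfkm, Pgam2 and Eno3, and chow replicate 2 (1928 CPM) at the right. Slc2a4 is lowest in high fat diet replicate 10.

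The muscle-type isozymes were ordered over the libraries much as the skeletal muscle markers were, and their diet groups overlapped. Pfkm was at 20.9 and 11.9 FPKM on chow and at 18.1, 16.5 and 13.3 FPKM under high fat feeding, the same order as the muscle markers, which summed to 1928 and 682 CPM and to 1779, 1556 and 1026 CPM. Eno3, the muscle enolase, was at 43.3 and 14.7 FPKM on chow and at 32.6, 29.0 and 23.3 FPKM under high fat feeding. Pgam2, the muscle phosphoglycerate mutase, was at 12.4 and 3.77 FPKM on chow and at 13.0, 12.8 and 7.96 FPKM under high fat feeding. Both were lowest in chow replicate 8, as the markers were. The transporter Slc2a4 departed from this, at 3.76 and 1.675 FPKM on chow and 2.34, 2.88 and 1.58 FPKM under high fat feeding. It was lowest in high fat diet replicate 10. As shares, Eno3 ranged from 11.6% to 30.4% of the enolases and Pgam2 from 12.3% to 32.8% of the phosphoglycerate mutases. This relation is a description over 5 libraries, and the part of muscle in it was not tested.

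The aldolases, enolases and remaining enzymes of lower glycolysis showed differences smaller than their standard errors or near them, apart from Pkm. Aldoa held at least 99.0% of the aldolase FPKM in each library, and Aldoc, the brain type, at most 0.984%. Eno2, the neuronal enolase, held 0.721% to 1.18% of the enolases. Their log2 fold changes were 0.28 for Aldoc and -0.10 for Eno2, and Aldoc had 0.0674 without high fat diet replicate 10. Aldoa had a log2 fold change of 0.07 (95% interval -0.21 to 0.35), Tpi1, the triose isomerase, 0.13 (-0.12 to 0.38), Gapdh, the glyceraldehyde phosphate dehydrogenase, -0.01 (-0.26 to 0.24), Pgk1, the first ATP-yielding kinase, 0.07 (-0.19 to 0.32), Pgam1 0.16 (-0.17 to 0.49, or a value of 0.0269 without high fat diet replicate 10) and Eno1 0.03 (-0.27 to 0.32). Pkm was at 339 and 359 CPM on chow and at 380, 375 and 455 CPM under high fat feeding. All 3 high fat values exceeded the chow values, and the log2 fold change was 0.21 (SE 0.13, edgeR adjusted p = 0.966). Without high fat diet replicate 10 it was 0.11.

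The 2 lactate dehydrogenase genes lay on opposite sides of 0, though neither difference passed. Ldha (gene ID 16828, chromosome 7 from 46841475 to 46855627, plus strand, mm10) encodes the subunit that favours lactate formation, and Ldhb (chromosome 6 from 142490249 to 142507957, minus strand) the subunit that favours pyruvate. Ldha was at 249 and 272 CPM on chow and at 296, 292 and 366 CPM under high fat feeding, so the groups did not overlap. Ldhb was at 78.9 and 97.1 CPM on chow and at 78.3, 86.3 and 61.6 CPM under high fat feeding, where the groups overlapped. The log2 fold changes were 0.29 (SE 0.13) for Ldha (edgeR unadjusted p = 0.06, adjusted p = 0.91) and -0.22 (SE 0.16) for Ldhb (adjusted p = 0.976). Without high fat diet replicate 10, which had the highest Ldha and the lowest Ldhb, Ldha had 0.17 and Ldhb -0.0966. Without chow replicate 8 Ldhb had -0.0624. In FPKM, Ldha held 71.7% and 69.2% of the pair on chow and 75.3%, 73.1% and 82.7% under high fat feeding. The log2 ratio of Ldhb to Ldha averaged -1.26 ± 0.12 (SD, n = 2) on chow and -1.77 ± 0.43 (SD, n = 3) under high fat feeding, lower in each high fat diet library than in both chow libraries. The two-sided exact permutation test gave p = 0.2, or 0.667 adjusted over 10 pairs of isozymes or paralogs, where 2 libraries against 3 cannot go below 0.1. The difference of -0.51 log2 units became -0.27 without high fat diet replicate 10.

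**Figure D4:**
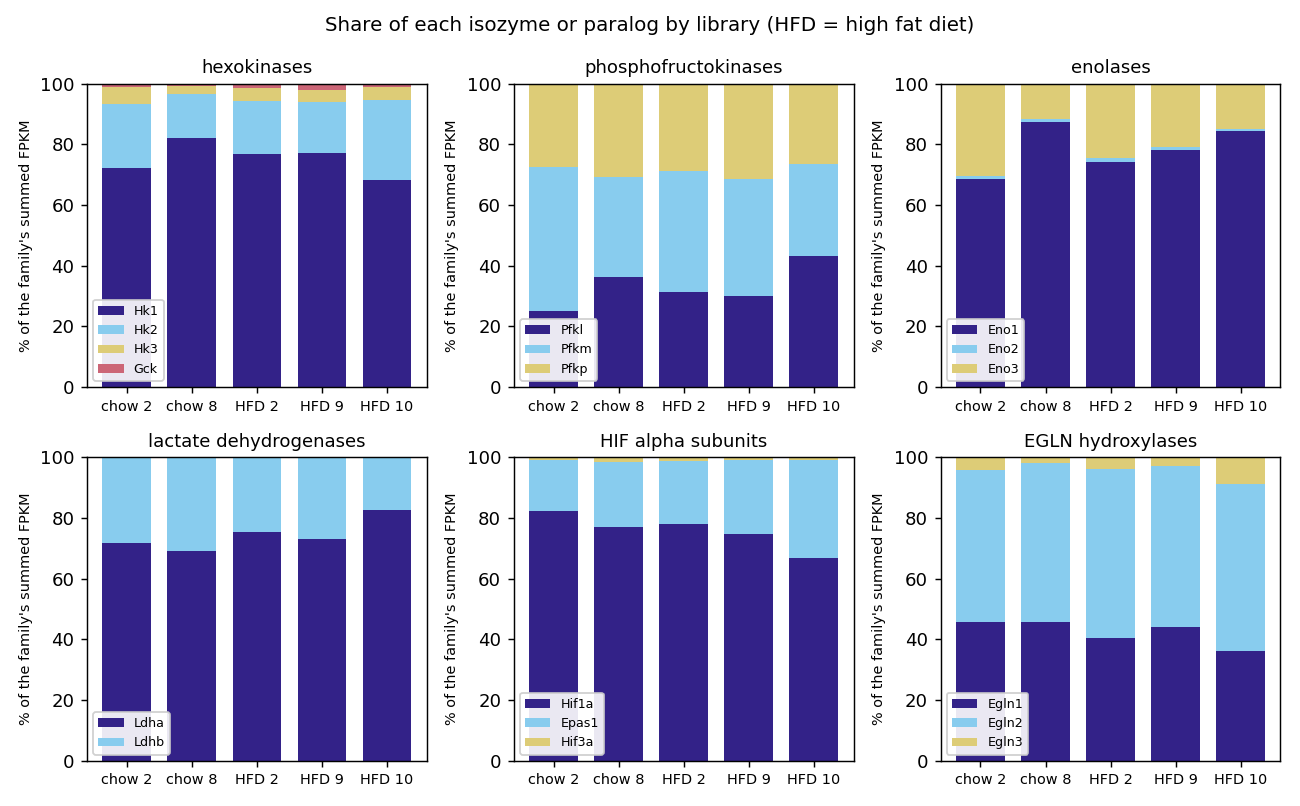
Share of each gene in the summed FPKM of its family (y axis, percent) in each library (x axis). Ldha holds 69.2% to 82.7% and Hif1a 66.9% to 82.3%, with high fat diet replicate 10 at the top of the Ldha shares and at the bottom of the Hif1a shares.

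Pdk1, which holds pyruvate back from mitochondria by phosphorylating pyruvate dehydrogenase, was at 40.8 and 35.4 CPM on chow and at 39.6, 39.9 and 36.4 CPM under high fat feeding, with a 95% interval of the log2 fold change from -0.24 to 0.28. It held 8.33% to 11.9% of the FPKM of the 4 pyruvate dehydrogenase kinases, of which Pdk3 held most, at 38.3% to 47.0%.

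The promoters of both dehydrogenase genes and of 2 hypoxia targets described further on, Bnip3 and Ankrd37, are shown. HIF binds a short core motif, ACGTG or GCGTG, and these genes include members whose CPM lay apart between the diets in opposite directions. Each sequence is the 250 bases before the annotated start, 5′ to 3′ on the gene's strand, from RefSeq (GRCm38.p6, the assembly of mm10), with matches to ACGTG or GCGTG on either strand in capitals. The windows are chr7:46845554-46845803 for Ldha (plus strand, the window with more matches of 2), chr6:142507958-142508207 for Ldhb (minus strand), chr7:138909507-138909756 for Bnip3 (minus strand) and chr8:45999851-46000100 for Ankrd37 (minus strand).
Ldha: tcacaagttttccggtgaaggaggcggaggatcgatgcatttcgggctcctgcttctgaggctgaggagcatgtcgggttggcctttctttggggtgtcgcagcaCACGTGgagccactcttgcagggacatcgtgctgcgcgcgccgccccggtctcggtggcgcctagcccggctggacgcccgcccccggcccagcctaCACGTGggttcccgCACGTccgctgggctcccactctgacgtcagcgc
Ldhb: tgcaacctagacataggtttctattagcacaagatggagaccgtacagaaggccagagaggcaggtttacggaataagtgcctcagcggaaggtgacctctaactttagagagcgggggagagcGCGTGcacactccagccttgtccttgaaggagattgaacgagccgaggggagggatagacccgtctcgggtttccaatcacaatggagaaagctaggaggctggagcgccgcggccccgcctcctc
Bnip3: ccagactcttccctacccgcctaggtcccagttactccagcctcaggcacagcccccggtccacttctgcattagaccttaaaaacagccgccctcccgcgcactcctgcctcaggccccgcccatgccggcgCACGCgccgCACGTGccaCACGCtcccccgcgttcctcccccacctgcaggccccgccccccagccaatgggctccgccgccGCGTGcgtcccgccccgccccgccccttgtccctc
Ankrd37: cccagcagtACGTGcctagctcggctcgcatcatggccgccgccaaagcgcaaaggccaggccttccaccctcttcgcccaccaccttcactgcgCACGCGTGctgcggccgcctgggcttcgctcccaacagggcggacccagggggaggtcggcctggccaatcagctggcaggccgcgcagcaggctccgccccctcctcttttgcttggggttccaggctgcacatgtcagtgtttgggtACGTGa

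The letters CACGTG read as a match on both strands, so overlapping matches count separately. Ldha had 5 matches in 3 stretches, the nearest at 34 bases before the start, Bnip3 had 5 in 4 stretches, Ankrd37 had 4 in 3 stretches and Ldhb had 1, at 126 bases before the start. Promoter windows were found for 30 of the 33 genes, and 27 of these (90.0%) had at least 1 match in at least 1 window, against 58.0% of the 12324 tested genes with a window. By window the shares were 79.5% of 44, 52.5% of 15611 for tested genes and 38.6% of all 32851 windows. The median GC content was 61.0% in the members' windows and 58.8% in those of tested genes, and its part in the shares was not tested. A match is a description of letters and not a bound site. None of the diet differences of the 4 genes printed passed, and whether match counts go with them was not tested.

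Oxygen is sensed by the EGLN prolyl hydroxylases, which mark the HIF alpha subunits for destruction. Much of this control acts on the proteins, which these data do not measure. Hif1a, the widely expressed alpha subunit, was at 622 and 479 CPM on chow and at 530, 510 and 453 CPM under high fat feeding. The chow libraries enclosed 2 of the 3 high fat diet values, and the log2 fold change was -0.15 (95% interval -0.47 to 0.18). Epas1 (HIF-2 alpha, gene ID 13819, chromosome 17 from 86753700 to 86833410, plus strand, mm10), best known from endothelium and lung, was at 146 and 151 CPM on chow and at 163, 192 and 254 CPM under high fat feeding. The 3 high fat values exceeded those of the chow libraries, which differed by little. Its log2 fold change of 0.45, SE 0.18 and 95% interval 0.04 to 0.87, was the 1 value of the 33 with an edgeR unadjusted p under 0.05 (0.0357), and it did not pass after adjustment (0.869). Without high fat diet replicate 10 the log2 fold change of Epas1 was 0.26, with an unadjusted p of 0.0375. The unadjusted p was 0.132 without chow replicate 2, 0.0976 without chow replicate 8 and 0.0572 without high fat diet replicate 9, and it was 0.00404 without high fat diet replicate 2. The authors' deposited table lists Epas1 with a signed fold of -1.32, chow over high fat diet, and an adjusted p of 0.971.

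Markers of 2 cell types known for Epas1 were set beside it. The 10 endothelial markers, all in the table, summed to 697 and 600 CPM on chow and to 745, 839 and 676 CPM under high fat feeding, and the 10 airway markers to 1487 and 1874 CPM and to 2138, 2776 and 8003 CPM. Epas1 had the same order over the 5 libraries as the airway sum, while the endothelial sum had another order. Airway markers were not the only ones to lie apart by diet. The cartilage markers, 5 of 8 in the table, summed to 119 and 122 CPM on chow and to 146, 144 and 187 CPM under high fat feeding. The follicular cell and adipocyte sums were lower without overlap. In log2 fold change all 10 airway markers lay above 0, as did 9 of the 10 endothelial markers, with 1 below. The part of any of these cell types in the Epas1 difference was not tested. In FPKM, Hif1a held 82.3% and 77.0% of the 3 HIF alpha genes on chow and 78.2%, 74.8% and 66.9% under high fat feeding, and Epas1 held 17.0% and 21.4%, then 20.7%, 24.4% and 32.3%. The groups overlapped in the log2 ratio of Epas1 to Hif1a, and the exact permutation test gave p = 0.3, or 0.75 adjusted over the 10 pairs.

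Egln1, the main HIF hydroxylase, was at 43.2 and 45.7 CPM on chow and at 37.9, 40.0 and 40.8 CPM under high fat feeding. In CPM each high fat diet library lay below both chow libraries, by a log2 fold change of -0.17 (SE 0.10, edgeR adjusted p = 0.966). In FPKM the groups overlapped, at 11.88 and 11.95 on chow and 10.35, 11.34 and 12.11 under high fat feeding. The authors' deposited table gives Egln1 a fold of 1.11 for chow over high fat diet, with an unadjusted p of 0.0422 and an adjusted p of 0.971. Egln3, a hydroxylase that is itself a strong HIF target, was at 2.92 and 1.36 CPM on chow and at 2.69, 1.91 and 7.64 CPM under high fat feeding. High fat diet replicate 10, with 386 counts against 56 to 139 in the others, stood alone, and the log2 fold change went from 0.93 to 0.10 without it. Egln2, the third hydroxylase, held 50.2% to 55.7% of the family's FPKM, and Egln1 held 36.2% to 45.8%.

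**Figure D5:**
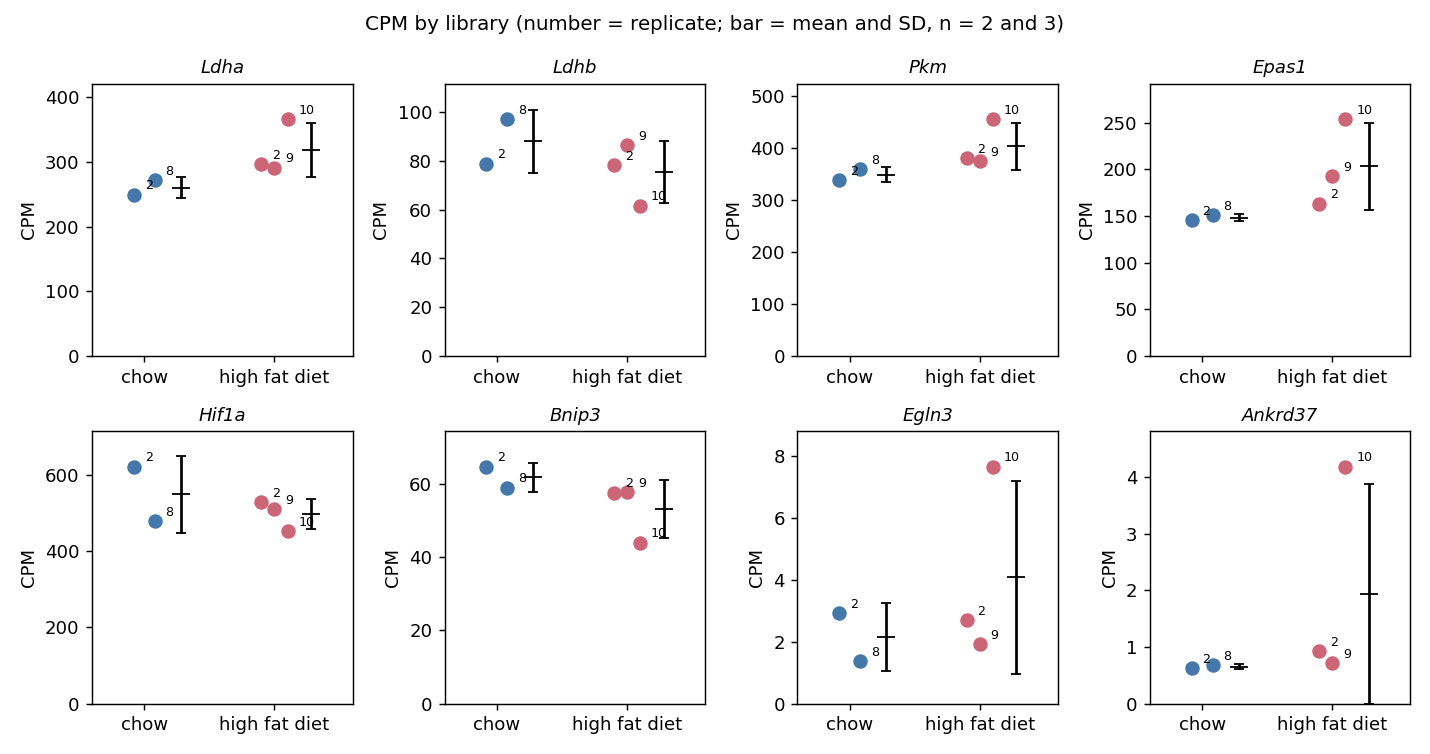
CPM (y axis, from 0) of 8 genes by diet, 1 point per library with its replicate number, and the mean with SD as a black bar (n = 2 and 3). Ldha, Pkm, Epas1 and Ankrd37 lie above chow in each high fat diet library, and for Egln3 and Ankrd37 high fat diet replicate 10 lies far above the other 4.

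Among the hypoxia targets, 6 of 8 lay above 0 and 2 below. Vegfa, which drives vessel growth, was at 183 and 221 CPM on chow and at 224, 220 and 229 CPM under high fat feeding, where the 3 libraries were close to chow replicate 8 and chow replicate 2 was the low one. Its 95% interval ran from -0.11 to 0.41, and its log2 fold change was 0.15, or 0.0185 without chow replicate 2. Ankrd37, a small ankyrin protein induced by HIF, was at 0.625 and 0.682 CPM on chow and at 0.927, 0.717 and 4.17 CPM under high fat feeding. All 3 high fat diet values lay above chow, but by a small margin except in high fat diet replicate 10, which had 211 counts against 27 to 48 elsewhere. The log2 fold change was 1.57 (SE 0.86), and 0.33 without that library. Car9 was at 0.787 and 0.511 CPM on chow and at 0.483, 0.836 and 1.07 CPM under high fat feeding, with overlap. Its log2 fold change was 0.29, or 0.0177 without chow replicate 8 and 0.0194 without high fat diet replicate 10.

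Bnip3 and Bnip3l are mitochondrial receptors for mitophagy. Bnip3 was at 64.6 and 58.9 CPM on chow and at 57.6, 57.7 and 43.9 CPM under high fat feeding. The groups did not overlap in CPM, though the gap between chow replicate 8 and the nearest high fat diet library was small. In FPKM the groups overlapped, at 35.7 and 30.9 on chow and 31.6, 32.8 and 26.1 under high fat feeding. The log2 fold change was -0.22 (SE 0.14, edgeR adjusted p = 0.966), or -0.10 without high fat diet replicate 10. Bnip3l was the steadiest of the set, from 165 to 182 CPM over the 5 libraries, with a log2 fold change of -0.02. The log2 ratio of Bnip3l to Bnip3 averaged 0.62 ± 0.08 (SD, n = 2) on chow against 0.83 ± 0.18 (SD, n = 3), without overlap (exact permutation p = 0.2, or 0.667 adjusted over the 10 pairs). Ndrg1, a stress-responsive gene linked to differentiation, had a log2 fold change of 0.13.

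The collagen prolyl hydroxylase subunits P4ha1 and P4ha2, which mature collagen for secretion, had log2 fold changes of 0.08 and 0.25. That of P4ha2 was 0.0632 without chow replicate 2 and 0.45 without chow replicate 8. P4ha2 was at 30.9 and 40.2 CPM on chow and at 39.0, 43.9 and 43.6 CPM under high fat feeding, with overlap through chow replicate 8. In FPKM the log2 ratio of P4ha2 to P4ha1 was -0.39 and -0.24 on chow and -0.18, -0.09 and -0.16 under high fat feeding. It was higher in each high fat diet library, at the smallest p the exact test allows (0.1), or 0.667 adjusted over the 10 pairs. Of these 10 ratios, 0 passed.

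Around these genes, 7 related lists were examined, and in edgeR 0 of their 97 measured genes passed, with 1 higher and 4 lower at an unadjusted p under 0.05 (1.03% and 4.12%, against 2.95% and 2.47% of all genes). DESeq2 called 1 of the 97, Pck1 (1.03%, background 0.59%), and limma-voom 0. Among further HIF targets, 21 of 31 lay above 0 (median 0.04 log2 units), and those of smallest p were the clock-linked repressor Bhlhe40 at 0.34, the lipase inhibitor Angptl4 at 0.29 and the collagen lysyl hydroxylase Plod2 at 0.24. Of 14 HIF pathway regulators, 9 lay below 0 with a median of -0.08, where the coactivator-binding protein Cited4 had -0.51, the elongin gene Tceb1 -0.27 and the acetyltransferase Crebbp -0.18. Of 14 genes for pyruvate entry into mitochondria, 11 lay below 0 with a median of -0.10. Pdk2, a kinase of pyruvate dehydrogenase, was at 37.2 and 45.7 CPM on chow and at 25.5, 29.0 and 34.1 CPM under high fat feeding, without overlap, and its difference of -0.49 log2 units missed the threshold (edgeR unadjusted p = 0.011, adjusted p = 0.711). The phosphatase Pdp2 had -0.37 and the complex subunit Pdhx -0.19.

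The other isozymes of the same steps had a median log2 fold change of 0.01 over 17 measured genes, 9 above 0 and 8 below, with Pfkfb4 at -0.19 and Pfkfb1 at -0.40. The pentose phosphate pathway, which branches off after hexokinase, had 4 of 7 genes above 0. Transketolase (Tkt) was at 132 and 140 CPM on chow and at 105, 108 and 119 CPM under high fat feeding, without overlap, and its log2 fold change of -0.29 did not pass (adjusted p = 0.826). G6pdx, the entry enzyme, had -0.15 and Taldo1 -0.16. Of 6 gluconeogenesis genes, 5 lay above 0 with a median of 0.15. Fbp1, which reverses the phosphofructokinase step, was at 9.26 and 11.7 CPM on chow and at 17.3, 14.4 and 15.7 CPM under high fat feeding, and its difference of 0.59 log2 units missed the threshold (edgeR adjusted p = 0.626). Fbp2 had 0.61, with overlap, at 1.48 and 1.92 CPM on chow and 4.46, 1.79 and 1.52 CPM under high fat feeding, where high fat diet replicate 2 alone lay above both chow libraries. Pck1, also an adipocyte gene, went the other way at 8.59 and 17.9 CPM on chow and at 3.32, 3.13 and 1.72 CPM under high fat feeding, a log2 difference of -2.28 (edgeR adjusted p = 0.336). The 8 adipocyte markers, all in the table, summed to 109 and 135 CPM on chow and to 79.9, 82.9 and 57.3 CPM under high fat feeding, and their part in the Pck1 difference was not tested. Glycogen genes were split evenly, 5 above and 5 below 0, with the phosphorylase Pygl at -0.24 and the mutase Pgm2 at 0.18.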

How the data were processed

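Thyroid total RNA was turned into stranded libraries, per the labels' protocols. The submitters' processing notes list HISAT2, StringTie, DESeq2 and mm10 without roles or versions, and whether strand was used in counting is not stated in them. The deposited table holds raw read counts and FPKM per gene. A second deposited table holds the authors' signed fold (a score with no log scale) and their p-values for the diets. Every listed gene has 1 count or more in each library. The column headers write HED for the high fat diet and were matched by treatment and number. Another 3 count columns match no sample here and were left unused.

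The deposited counts went into edgeR 4.0.16 (R 4.3.3) with TMM scaling, filterByExpr (648 genes dropped, 15765 tested) and a robust quasi-likelihood fit with diet as the sole term. Benjamini-Hochberg adjustment ran over all tested genes, and the common biological coefficient of variation came to 18.8%. CPM use TMM-adjusted library sizes. Levels between genes, and ratios of isozymes, use the deposited FPKM with no pseudocount, and ratios were compared by exact permutation over libraries. The fitting steps were tested on simulated data. Settings varied were the scaling (RLE, upper quartile), the filter (none, or 1 CPM or more throughout a group), the tool (DESeq2 1.42.0, limma-voom with limma 3.58.1, edgeR without robust shrinkage) and the libraries, each left out in turn. Values by library were planned for up to 6 genes of smallest p in each direction, the isozyme pairs, and the HIF and EGLN genes. Up to 3 genes of smallest p were to be named from each related list. Of the pairs, Hk1, Pfkp, Aldoa, Aldoc, Eno1, Eno2, Bnip3l and P4ha1 are given without a level for each library. Further genes were named after their values were seen. A few of the related-list picks are not reported here. The members and lists were chosen with earlier results of these data known. Positions are from GENCODE M21 (mm10).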

Additional observations from a re-analysis of the deposited data

How the results depend on the processing

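In the 12 alternatives, 0 of the 33 genes passed in either direction. Among the alternatives that kept all 5 libraries and all 33 genes, the median log2 fold change ran from 0.0761 with RLE to 0.0854 with limma-voom. The stricter filter kept 31 of the 33, and their median was 0.0716. When 1 library was left out, the median of the 33 genes ran from 0.0604 to 0.177. The highest value came without chow replicate 8. Over all genes DESeq2 called 47 higher and 46 lower where edgeR called 0 and 0, and with 1 library left out edgeR called 0 to 2 higher and 0 to 3 lower. The sign of the log2 fold change changed in at least 1 alternative for 17 genes and in none for 16. With 1 library left out the ranges of the 17 were Slc2a1 (-0.13 to 0.43), Hk1 (-0.30 to 0.22), Hk2 (-0.17 to 0.47), Gpi1 (-0.16 to 0.0872), Pfkm (-0.42 to 0.30), Pfkp (-0.0146 to 0.13), Pfkfb3 (-0.42 to 0.55), Aldoa (-0.0196 to 0.12), Gapdh (-0.083 to 0.0358), Pgk1 (-0.0121 to 0.11), Eno1 (-0.10 to 0.16), Eno2 (-0.28 to 0.12), Pdk1 (-0.0771 to 0.12), Bnip3l (-0.0555 to 0.0145), Ndrg1 (-0.0137 to 0.29), Hif1a (-0.32 to 0.0497) and P4ha1 (-0.0366 to 0.21). Those of the other 16 were Pfkl (0.0973 to 0.42), Aldoc (0.0674 to 0.38), Tpi1 (0.0789 to 0.19), Pgam1 (0.0269 to 0.25), Ldha (0.17 to 0.36), Ldhb (-0.37 to -0.0624), Pkm (0.11 to 0.26), Slc16a3 (0.0604 to 0.48), Vegfa (0.0185 to 0.30), Car9 (0.0177 to 0.63), Bnip3 (-0.28 to -0.10), Egln1 (-0.21 to -0.12), Egln3 (0.10 to 1.57), Epas1 (0.26 to 0.59), Ankrd37 (0.33 to 1.96) and P4ha2 (0.0632 to 0.45). Pfkfb3 also had 0.0409 in limma-voom against -0.00944. The log2 ratio differences that changed sign when 1 library was left out were Aldoc/Aldoa (-0.021 to 0.35), Eno2/Eno1 (-0.49 to 0.19), Hk2/Hk1 (-0.13 to 0.60), Pfkm/Pfkl (-0.85 to 0.20) and Pfkp/Pfkl (-0.40 to 0.0157), and read counts in place of FPKM or FPKM + 1 changed none. Car9 and Ankrd37 did not pass the stricter filter and have no value there. No paired analysis was run, since the labels do not say that equal replicate numbers in the diets mark a pair. Leaving out a chow library leaves 1, which is assumed to vary like the other group. With 2 and 3 libraries the exact test cannot pass the threshold, and the low counts of Car9 and Ankrd37 limit their precision.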
